A study of Rattus norvegicus with 26 samples.

Results

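Expression was followed for 8 neighbouring features of rat chromosome 16, in a stretch from 49543142 to 50501921 (positions are those of the deposited tables, whose build no source used here names). The deposited tables list 12 features inside this stretch among 32552 in all. The 8 were chosen by their raw counts, as those with the highest sums over the 26 libraries, so these sums, from 506 to 65472, are a description and not a result. The last feature inside this limit, ENSRNOG00000012658, had 506 counts, and the first outside it, ENSRNOG00000028744, had 110. The 3 remaining features of the stretch had 9, 1 and 0 counts.

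The stretch was chosen as the neighbourhood of the genes F11 and Klkb1. F11 encodes coagulation factor XI and Klkb1 encodes plasma prekallikrein. Both are secreted by hepatocytes as inactive serine protease precursors of the contact pathway of blood clotting, in which activated factor XII cleaves them, and activated factor XI then acts on factor IX. In the RefSeq annotation of the GRCr8 assembly, F11 and Klkb1 are next to each other on chromosome 16. Their protein-coding neighbours there are Cyp4v3, Fam149a, Tlr3 and Sorbs2 on the Klkb1 side and Mtnr1a and Fat1 on the F11 side. The count tables carry identifiers only, and the reference table of 47357 genes pairs 0 of the 32552 identifiers with a symbol. No member is therefore given a gene name, a role or a sequence, and the labelled cell types could not be checked against named markers. Other coagulation genes could not be looked up either.

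The samples are rat liver in 6 groups. Before transplantation, RNA was taken from adult hepatocytes (4 libraries) and from fetal hepatocytes isolated with antibodies. The fetal cells came as 3 sorts, labelled LAP+, LAP+/OC2- and LAP+/OC2+, with 4 libraries apiece. The labels do not spell out LAP or OC2, and no source used here gives strain, exact age, agents or the time after transplantation. After transplantation, tissue was laser-captured from fetal-derived colonies and from the adult host liver around them in the same 5 animals. Nothing in the labels says which sort the colonies came from. Sorted cells and captured tissue were prepared with different library kits, so levels are compared within a stage only.

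Libraries held 7871347 to 16874438 counts. On the TMM-scaled CPM scale used throughout (counts relative to the scaled library total), 3 counts, the limit a count of 0 allows, correspond to 0.345 to 0.774 CPM in the LAP+/OC2+ libraries and to 0.132 to 0.332 CPM in the other 22. These limits cover counting error only. The LAP+/OC2+ sort stood apart, with 62.2 ± 17.9% of its counts on mitochondrial features (SD, n = 4) against a mean of at most 7.73% in every other group, and with 1917734 to 5045098 nuclear counts per library. Within groups, adult library 2, LAP+ library 2 and LAP+/OC2- library 1 lay outside the range of the other 3 libraries of their group for 4, 8 and 6 of the 8 members. They were singled out after their values were seen. In any group some library is the lowest and another the highest, so a count of 4 does not by itself set adult library 2 apart. It lay far from the others for ENSRNOG00000013684 (183 CPM against 282 to 291). LAP+ library 2 and LAP+/OC2- library 1 also deviated together over all 13818 features tested before transplantation (r = 0.66 between their deviations from the group means, a description across features). Results are given with and without these libraries where they matter. In bulk RNA, fewer cells of a type and less RNA per cell cannot be told apart.

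The members lie on both strands. ENSRNOG00000012658 runs from 49543142 to 49574390 and ENSRNOG00000013391 from 49626205 to 49820235, both on the minus strand. Then 5 features follow on the plus strand. They are ENSRNOG00000021726 (50016857 to 50031214), ENSRNOG00000021693 (50049828 to 50107856), ENSRNOG00000042426 (50111306 to 50136727), ENSRNOG00000014118 (50152008 to 50175458) and ENSRNOG00000013684 (50179458 to 50201698). ENSRNOG00000030954, from 50372128 to 50501921, is on the minus strand again. The gap between ENSRNOG00000014118 and ENSRNOG00000013684 is 3999 nt, and that between ENSRNOG00000021693 and ENSRNOG00000042426 is 3449 nt. ENSRNOG00000014118 has 2593 nt of exon and ENSRNOG00000013684 has 2602 nt, while ENSRNOG00000030954 has 15025 nt. No member overlaps another feature of the tables on either strand.

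Per length, the adjacent features ENSRNOG00000013684 and ENSRNOG00000014118 had the highest mean levels of the 8 in every group, and their order differed between adult and fetal cells. On the FPKM scale (CPM divided by the deposited exon length in kilobases), ENSRNOG00000013684 stood at 99.9 ± 19.8 and ENSRNOG00000014118 at 72.3 ± 6.75 in adult cells (SD, n = 4 each), with overlapping libraries. In LAP+ cells ENSRNOG00000014118 stood at 87.9 ± 20.7 and ENSRNOG00000013684 at 27.0 ± 3.52 FPKM (SD, n = 4 each), with no overlap. In adult cells ENSRNOG00000013391 (15.9 FPKM) and ENSRNOG00000021693 (8.79 FPKM) followed, each apart from its neighbours in the order. ENSRNOG00000021726 (3.72 FPKM) overlapped with ENSRNOG00000030954 (2.35 FPKM), which overlapped with ENSRNOG00000042426 (2.12 FPKM). ENSRNOG00000012658 came last, apart from these, at 0.027 FPKM. In LAP+ cells ENSRNOG00000021693 (7.21 FPKM) lay above ENSRNOG00000013391 (5.14 FPKM), the reverse of adult cells. Among the 19982 features with a count in LAP+ libraries, the mean FPKM of ENSRNOG00000014118 lay at percentile 96.9 and that of ENSRNOG00000030954 at percentile 50.2.

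**Figure D1:**
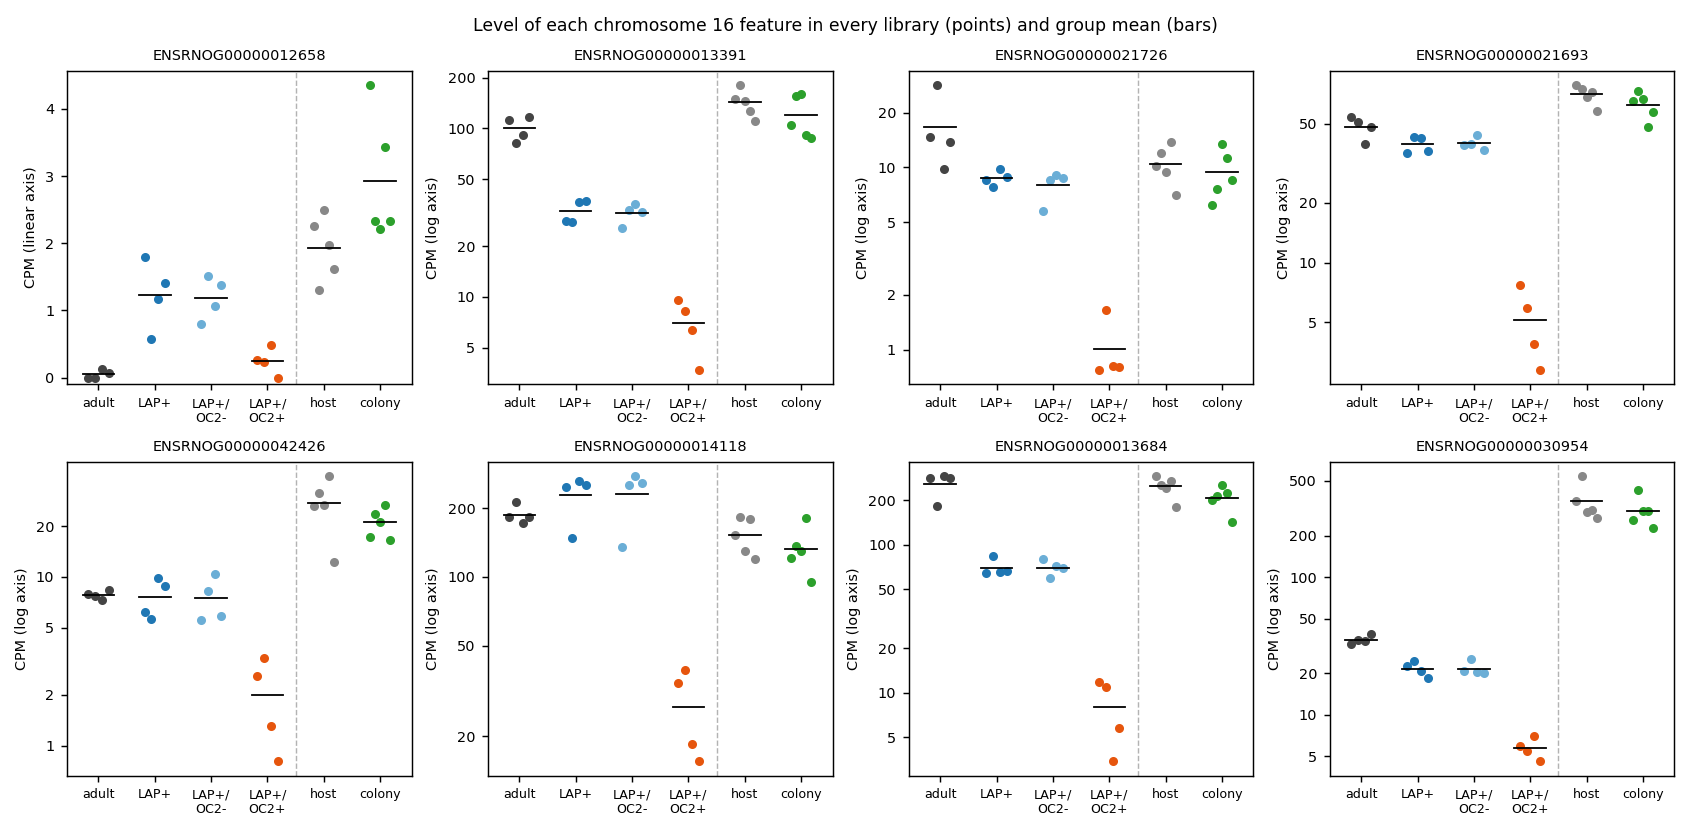
CPM (TMM-scaled) of each of the 8 members in every library, with a bar at each group mean and a dashed line between the stages before and after transplantation; the axis is logarithmic except for ENSRNOG00000012658. The LAP+/OC2+ points lie below those of every other group before transplantation for 7 members, and for ENSRNOG00000012658 the adult points, at 0 to 0.13 CPM, are the lowest on average.

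Fetal LAP+ cells differed from adult hepatocytes in 5 of the 8 members, with 4 called lower and 1 higher. A call means that edgeR's quasi-likelihood test gave p below 0.05 after Benjamini-Hochberg adjustment over every feature tested. Of all 13818 features tested, 60.3% were called in this comparison (31.7% higher and 28.5% lower), so a count of 5 is near the background. The median log2 difference of the 8 was -0.49 (-0.70 without ENSRNOG00000012658, whose call is qualified further on), against 0.06 for all features. The largest fall among the 4 was that of ENSRNOG00000013684. Its adult libraries 1 to 4 stood at 282, 183, 291 and 284 CPM and its LAP+ libraries at 64.4, 83.8, 65.3 and 67.1 CPM. The groups did not overlap although adult library 2 was low and LAP+ library 2 high. The fitted log2 difference was -1.89 (SE 0.26, edgeR adjusted p = 8.9e-06), and -2.13 without the 3 libraries that lay away from their groups.

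Its neighbour ENSRNOG00000014118 had no such fall. It stood at 183, 213, 172 and 182 CPM in adult libraries 1 to 4 and at 248, 148, 263 and 252 CPM in the LAP+ libraries. In LAP+ cells 3 libraries lay above every adult library and library 2 below all of them, so the groups overlapped on this scale. On nuclear CPM (counts relative to the nuclear counts of the library, without TMM scaling) they did not overlap. LAP+ libraries 1 to 4 stood at 328, 225, 340 and 348 there, and adult libraries between 180 and 218. The log2 difference was 0.28 (95% interval -0.30 to 0.86, edgeR adjusted p = 0.39), and 0.50 without the 3 libraries (adjusted p = 0.11). A fall of the size seen in ENSRNOG00000013684 lies outside this interval.

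Another member that fell was ENSRNOG00000013391, with a log2 difference of -1.63 (SE 0.21, edgeR adjusted p = 4.2e-06). Its adult libraries lay between 82.3 and 118 CPM and its LAP+ libraries between 27.8 and 37.2 CPM, a mean level of 32.2% of adult. ENSRNOG00000030954 fell by 0.70 in log2 units (SE 0.14, edgeR adjusted p = 0.00028), with adult libraries at 35.3 ± 2.58 and LAP+ libraries at 21.7 ± 2.59 CPM (SD, n = 4 each). Neither pair of groups overlapped on the TMM scale. On nuclear CPM ENSRNOG00000013391 again had no overlap. ENSRNOG00000030954 did overlap there, at 25.6 to 37.5 in LAP+ and 33.3 to 39.5 in adult libraries, so its fall depends on the scaling.

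ENSRNOG00000021726 also passed the test, at a log2 difference of -0.93 (SE 0.26, edgeR adjusted p = 0.006), but adult library 2 carried much of it. Adult libraries 1 to 4 stood at 14.7, 28.3, 9.82 and 13.7 CPM, against 7.81 to 9.80 CPM in LAP+ cells. On nuclear CPM the groups overlapped, at 10.2 to 29.0 in adult and 11.2 to 12.7 in LAP+ cells. Without adult library 2 the log2 difference was -0.56 (adjusted p = 0.033). Without all 3 libraries that lay away from their groups it was -0.50 and no longer called (adjusted p = 0.052).

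The features between these, ENSRNOG00000021693 and ENSRNOG00000042426, did not pass the test. ENSRNOG00000021693 had a mean of 48.0 ± 6.08 CPM in adult libraries and 39.4 ± 3.75 CPM in LAP+ libraries (SD, n = 4 each). Its log2 difference was -0.28 (95% interval -0.68 to 0.11, edgeR adjusted p = 0.19). It was called, with an edgeR adjusted p of 0.036, when the LAP+/OC2+ libraries were left out of the fit. On nuclear CPM its LAP+ libraries 1 to 4 stood at 47.1, 64.9, 54.9 and 50.6. Adult libraries 1 to 4 stood at 54.7, 51.9, 41.2 and 49.0 there, so the lower LAP+ level depends on the scaling. For ENSRNOG00000042426 the means were 7.79 ± 0.44 and 7.62 ± 2.01 CPM (SD, n = 4 each), and the log2 difference was -0.03 (95% interval -0.64 to 0.57).

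The member called higher was the least abundant, ENSRNOG00000012658. Adult libraries held 0, 0, 2 and 1 counts, and LAP+ libraries 35, 13, 22 and 28. The ratio of the count rates was 32.7, with an exact 95% interval of 10.9 to 161 that covers counting error only (library totals without TMM scaling). It passed the low-count filter only through the LAP+ and LAP+/OC2- libraries, where it is high, so it had to differ and its call supports nothing further. Its size in the fitted model (log2 4.38, SE 0.69) depends on how counts near 0 are treated and is no bound.

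LAP+/OC2- cells were compared with the same adult libraries, which the 2 comparisons share. Here 4 members were lower and 1 higher, where 59.3% of all features were called (30.9% higher and 28.4% lower). The higher one was again ENSRNOG00000012658. It passed the low-count filter only through the LAP+ and LAP+/OC2- libraries, so its call had to appear and supports nothing further. The log2 differences were -1.89 for ENSRNOG00000013684 (SE 0.26, edgeR adjusted p = 8.7e-06), -1.68 for ENSRNOG00000013391 (SE 0.21, adjusted p = 3.2e-06), -1.05 for ENSRNOG00000021726 (SE 0.27, adjusted p = 0.0026) and -0.70 for ENSRNOG00000030954 (SE 0.14, adjusted p = 0.00029). ENSRNOG00000021726 again leaned on adult library 2, with -0.69 without it. On nuclear CPM its groups overlapped, at 8.43 to 11.7 in LAP+/OC2- and 10.2 to 29.0 in adult libraries. Those of ENSRNOG00000030954 overlapped too, at 24.9 to 34.8 and 33.3 to 39.5, so for both the separation depends on the scaling. ENSRNOG00000013684 and ENSRNOG00000013391 had no overlap there. ENSRNOG00000014118 stood at 135, 254, 276 and 258 CPM in LAP+/OC2- libraries 1, 3, 4 and 5. Library 1 was the low one here, as library 2 was in LAP+ cells, and the log2 difference from adult was 0.30 (95% interval -0.28 to 0.88, edgeR adjusted p = 0.36). ENSRNOG00000021693 was not called in the full fit (log2 difference -0.27, adjusted p = 0.22) and had an adjusted p of 0.043 without the LAP+/OC2+ libraries. On nuclear CPM it was not lower, at 46.2 to 57.1 in LAP+/OC2- and 41.2 to 54.7 in adult libraries.

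**Figure D2:**
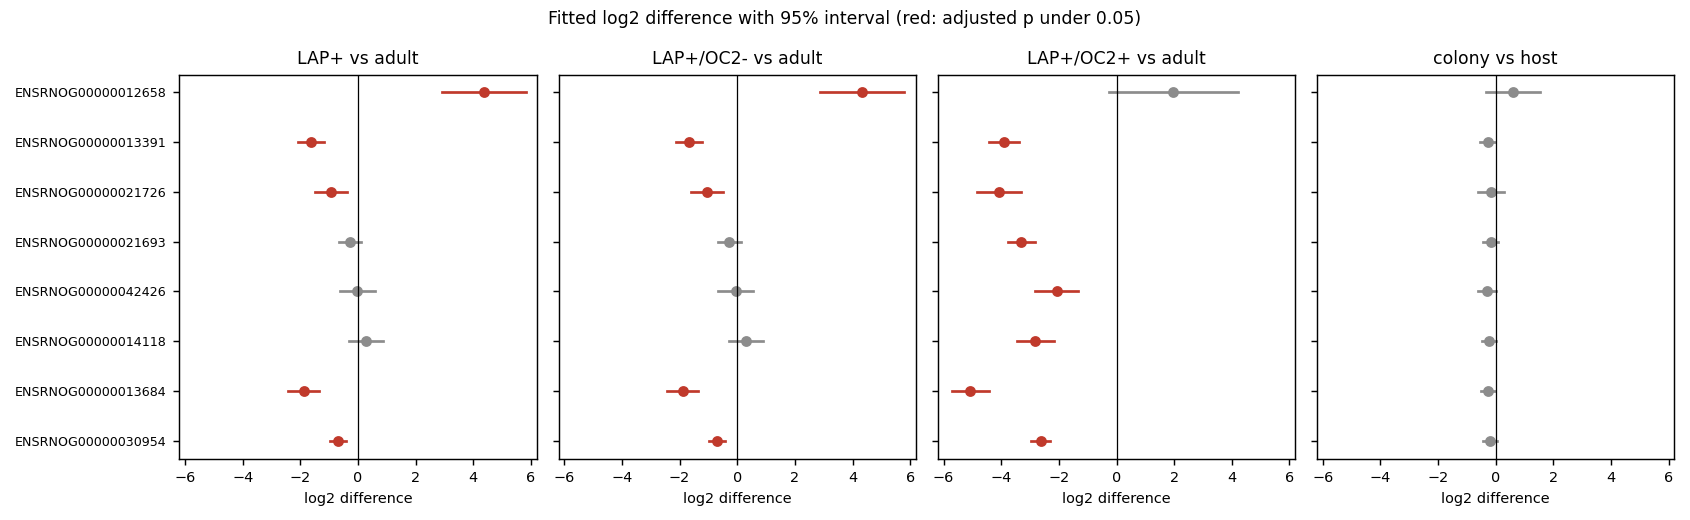
Fitted log2 difference (x axis) with its 95% interval for each of the 8 members in 4 comparisons, in red where the edgeR adjusted p is under 0.05. ENSRNOG00000013684 has the lowest value in each comparison of a fetal sort with adult cells, from -1.89 to -5.07, and no member is red for colony against host.

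Within each library, the count ratio of ENSRNOG00000014118 to ENSRNOG00000013684 separated the adult from the fetal cells. This ratio needs no scaling between libraries, and the 2 exon lengths differ by little. It was 0.647, 1.16, 0.593 and 0.641 in adult libraries 1 to 4, and 3.86, 1.77, 4.03 and 3.75 in LAP+ libraries 1 to 4. LAP+/OC2- libraries 1, 3, 4 and 5 gave 1.69, 4.29, 3.86 and 3.72, and LAP+/OC2+ libraries 1 to 4 gave 2.89, 3.59, 5.43 and 2.70. Every fetal library lay above every adult library. Adult library 2 was the nearest to the fetal cells, and LAP+ library 2 and LAP+/OC2- library 1 were the nearest to the adult cells. After transplantation the ratio ran from 0.523 to 0.720 in host and from 0.512 to 0.811 in colony tissue, all 10 libraries below 1, and the ranges overlapped. Library kit and material changed with the stage, so stage and method cannot be told apart here. The pair was singled out after its values were seen, and no test of the ratio was made.

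**Figure D3:**
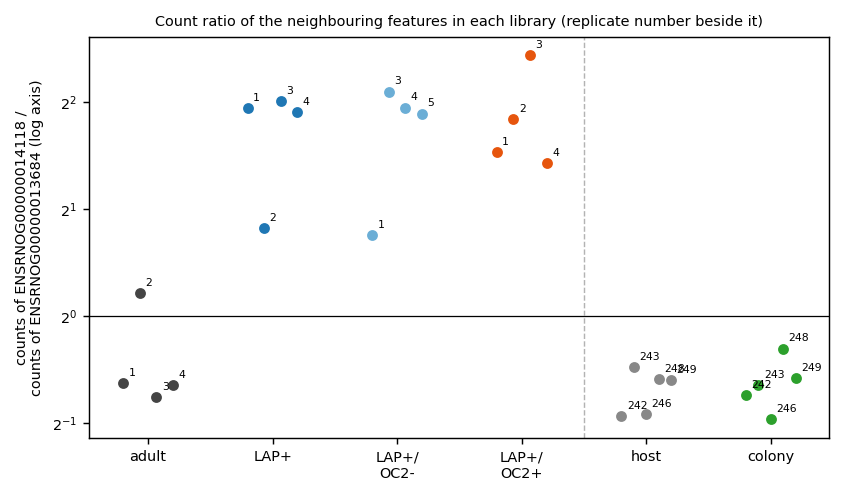
Ratio of the counts of ENSRNOG00000014118 to those of ENSRNOG00000013684 (log axis) in each library, with the replicate or animal number beside each point and a line at 1. Fetal sorts lie between 1.69 and 5.43, adult cells between 0.593 and 1.16, and host and colony tissue between 0.512 and 0.811.

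LAP+/OC2+ cells had lower levels of the members than the other fetal sorts. Against LAP+/OC2- cells, 7 of 7 members other than ENSRNOG00000012658 were lower (edgeR adjusted p from 6.1e-09 to 8.8e-05). Of all features 67.5% were called, 30.8% higher and 36.6% lower. The log2 differences ran from -3.18 in ENSRNOG00000013684 to -1.92 in ENSRNOG00000030954, with a median of -3.03 over these 7 against -0.18 for all features. RLE size factors moved the median of all features to -0.05, and each of the 7 was called lower with them too. ENSRNOG00000012658 held 5 counts in the LAP+/OC2+ libraries against 97 in the LAP+/OC2- libraries. Since it was tested only because it is high in LAP+ and LAP+/OC2- cells, its lower level in LAP+/OC2+ cells had to appear and is not counted.

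The members are best seen by their libraries. ENSRNOG00000014118 stood at 34.3, 39.2, 18.6 and 15.5 CPM in LAP+/OC2+ libraries 1 to 4, where the lowest LAP+/OC2- library had 135 CPM. ENSRNOG00000021693 stood at 7.74, 5.93, 3.91 and 2.88 CPM, against 36.7 to 43.6 CPM in LAP+/OC2- cells. ENSRNOG00000030954 had the smallest difference, with 5.93, 5.46, 7.01 and 4.60 CPM against 20.2 to 25.4 CPM. For 5 members libraries 1 and 2 were the highest of the LAP+/OC2+ sort and libraries 3 and 4 the lowest. The sort as a whole had the high mitochondrial share given above. It was 78.6%, 73.7%, 57.6% and 38.9% in libraries 1 to 4. The members took 0.0148%, 0.0136%, 0.0077% and 0.0059% of the nuclear counts of libraries 1 to 4. The part of the mitochondrial share in the difference between sorts was not tested. With mitochondrial rows left out before scaling, the same 7 of 7 were lower.

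The comparison of LAP+/OC2+ with unsplit LAP+ cells shares the LAP+/OC2+ libraries with the one above. Here too 7 of 7 members other than ENSRNOG00000012658 were lower (edgeR adjusted p from 6.5e-09 to 8e-05), where 67.8% of features were called, 32% higher and 35.9% lower. The log2 differences ran from -3.18 to -1.92 with a median of -3.01, against -0.10 for all features (0.01 with RLE size factors). Against adult cells, 7 of 8 were lower in LAP+/OC2+ cells, where 77.5% of features were called, 38.9% higher and 38.6% lower. ENSRNOG00000013684 stood at 11.9, 10.9, 3.43 and 5.75 CPM, which was 3.07% of its adult mean (log2 difference -5.07, SE 0.31, edgeR adjusted p = 2e-10). This percentage depends on the scaling. On nuclear CPM the same libraries stood at 24.0, 19.7, 6.29 and 9.91, against 187 to 303 in adult libraries. ENSRNOG00000042426 retained the largest share of its adult mean among the 7, at 25.7% (log2 difference -2.08, SE 0.36, edgeR adjusted p = 4.6e-05). ENSRNOG00000012658 had 1, 1, 3 and 0 counts in LAP+/OC2+ libraries 1 to 4, and its difference from the 3 counts of the adult libraries was not called (edgeR adjusted p = 0.099). It was called higher without adult library 3 (log2 2.85, adjusted p = 0.047) and without LAP+/OC2+ library 4 (2.59, adjusted p = 0.025).

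LAP+/OC2- and LAP+ cells were not told apart by any member. The edgeR test called 0 of 8, with 0 at an unadjusted p under 0.05, and DESeq2 also called 0. Of all features 0.391% were called, 0.246% higher and 0.145% lower. The log2 differences ran from -0.12 to 0.02. The widest 95% interval was that of ENSRNOG00000012658, from -0.96 to 0.88, and the narrowest that of ENSRNOG00000030954, from -0.28 to 0.29. Differences inside these intervals were not detectable with 4 libraries a group.

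Colony and host tissue differed by little in these features. Of the 8 members, 7 had a lower fitted level in colonies, by 0.17 to 0.31 on the log2 scale, and none passed an adjusted p of 0.05. The edgeR test with the animal as a block called 0 of 8, with 2 at an unadjusted p under 0.05, and DESeq2 called 0. Of the 22303 features tested, 1.17% were called, 0.565% higher and 0.61% lower. The median log2 difference of the 8 was -0.21, against 0.11 for all features. Relative to nuclear counts without TMM scaling, the 8 members together took 0.0928 ± 0.0159% in host and 0.0936 ± 0.0105% in colony tissue (SD, n = 5 each). On that scale the 8 together were not lower in colonies, so their lower colony level depends on the scaling.

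ENSRNOG00000013684 was one of the 2 with an unadjusted p under 0.05. Host tissue of animals 242, 243, 246, 248 and 249 stood at 292, 255, 244, 271 and 181 CPM, and colony tissue of the same animals at 200.4, 213, 253, 224 and 142 CPM. Colonies were lower in 4 of 5 animals, and animal 246 was the exception. On nuclear CPM the colony was lower in animals 242, 243 and 246. It was higher there in animals 248 (239.9 against 237.6) and 249 (174.5 against 164.6). The log2 difference was -0.28 (95% interval -0.52 to -0.03, edgeR adjusted p = 0.21).

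ENSRNOG00000013391 was the other, with 149, 181, 146, 126 and 110 CPM in the hosts and 104, 156, 159, 90.9 and 87.6 CPM in the colonies of these animals. Again 4 of 5 animals were lower in the colony and animal 246 higher. On nuclear CPM animals 243 (159.0 against 158.1) and 249 (107.8 against 99.8) were also higher in the colony. The log2 difference was -0.28 (95% interval -0.53 to -0.03, edgeR adjusted p = 0.21). Without animal 246, both features were called lower in colonies, ENSRNOG00000013391 by 0.38 (edgeR adjusted p = 0.02) and ENSRNOG00000013684 by 0.36 (adjusted p = 0.025). That fit called 1055 features higher and 1628 lower, against 126 and 136 with all animals.

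ENSRNOG00000014118 stood at 152, 183, 129.8, 179.9 and 120.0 CPM in the hosts and at 121, 137, 129.6, 181 and 95.1 CPM in the colonies of animals 242, 243, 246, 248 and 249. Animals 246 and 248 had almost the same TMM-scaled level in both tissues, and the log2 difference was -0.22 (95% interval -0.46 to 0.03, edgeR adjusted p = 0.31). ENSRNOG00000030954 was the member with the highest CPM after transplantation, at 354 ± 109 in host and 304 ± 76.9 in colony tissue (SD, n = 5 each). Animal 243 had the highest value in both tissues, 540.2 CPM in the host and 429 CPM in the colony.

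ENSRNOG00000021693 was lower in the colony of 5 of 5 animals on TMM-scaled CPM, but by under 0.04 on the log2 scale in animals 243, 246 and 249 (edgeR adjusted p = 0.42). On nuclear CPM its colony level was higher in animals 242, 243 and 249 and lower in animals 246 and 248. ENSRNOG00000012658 had the opposite sign to the rest. It stood at 1.93 ± 0.48 CPM in host and 2.93 ± 0.94 CPM in colony tissue (SD, n = 5 each), higher in 4 of 5 colonies, with a log2 difference of 0.58 (95% interval -0.35 to 1.52, edgeR adjusted p = 0.49). The last 2 members, ENSRNOG00000042426 and ENSRNOG00000021726, had log2 differences of -0.31 and -0.17 (adjusted p = 0.28 and 0.68). Over the 8 members, the median difference by animal was -0.48 in 242, -0.29 in 243, 0.01 in 246, -0.28 in 248 and -0.13 in 249.

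**Figure D4:**
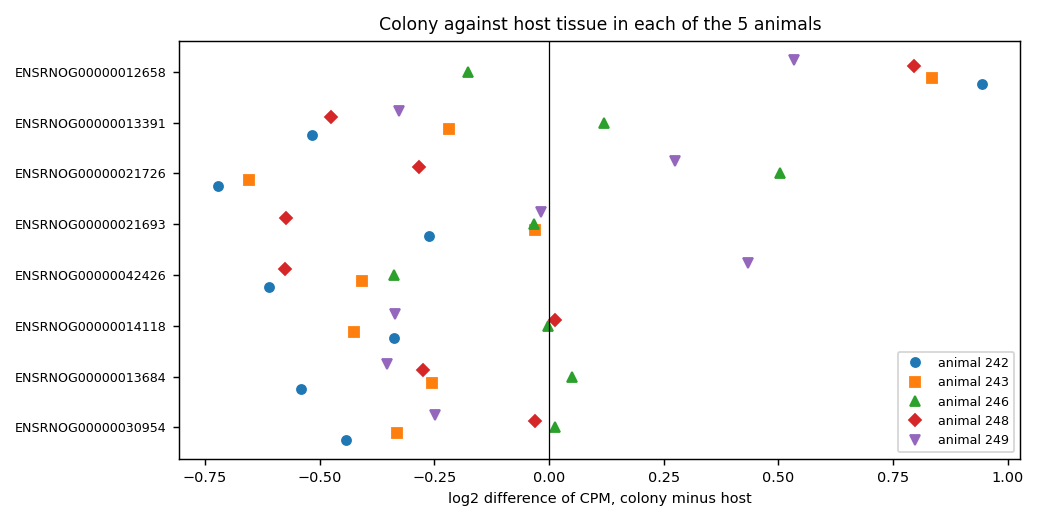
Log2 difference of CPM between colony and host tissue (x axis) for each of the 8 members, with 1 symbol for each of the 5 animals. For animal 242, 7 of 8 points lie left of 0, down to -0.72, while those of animal 246 lie between -0.34 and 0.50 on both sides of 0.

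The fetal-adult difference before transplantation was set against the colony-host difference after it, in 1 fit of 18 libraries. Only differences within a stage enter this contrast, and 25.4% of the 23298 features tested were called, 13.2% higher and 12.2% lower. Of the members 3 were called lower and 1 higher. For 2 members the pre-transplant fall was larger than the colony-host difference in the main fit and in each of 20 alternatives. ENSRNOG00000013684 differed between the contrasts by -1.61 in log2 units, with an SE of 0.21 and an edgeR adjusted p of 3.9e-06. For ENSRNOG00000013391 the value was -1.34 (SE 0.20, adjusted p = 3.1e-05). ENSRNOG00000012658 was called in the opposite direction, by 3.85 (SE 0.85, adjusted p = 0.0015), and rests on the 3 adult counts given above.

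ENSRNOG00000030954 was also called, at -0.49 (SE 0.17, edgeR adjusted p = 0.043), but 15 of 20 alternatives ended that call, with adjusted p from 0.0043 to 0.44 over all 20. The call was lost without any one of the 4 LAP+ libraries, of adult libraries 2, 3 or 4, or of animals 243, 246, 248 or 249. The value moved most without LAP+ library 4 (-0.25), animal 246 (-0.27) and LAP+ library 3 (-0.31). ENSRNOG00000014118 was not called at 0.50 (SE 0.21, adjusted p = 0.093), and 5 of 20 alternatives called it, among them the fits without LAP+ library 2 (0.81, adjusted p = 0.0013) and without animal 246. The other 3 members were not called in the main fit or in any alternative.

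The features around the stretch were also counted. Within 500000 nt on either side the tables list 16 features, of which 5 were tested before transplantation, all on the side of lower coordinates. In LAP+ against adult cells 3 of the 5 were higher and 1 lower. Against LAP+/OC2- cells, the LAP+/OC2+ sort had 4 of the 5 lower and 1 higher (median log2 difference -0.80), and against LAP+ cells it had 3 lower and 1 higher (median -0.90). Over all 400 tested features of chromosome 16, 117 were higher and 126 lower in LAP+ than in adult cells, with a median log2 difference of -0.04. In LAP+/OC2+ against LAP+/OC2- cells 119 of them were higher and 167 lower, with a median of -0.24. In colony against host, 0 of the 12 flanking features tested and 7 of 665 on chromosome 16 were called. No test set the stretch against its surroundings.

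Features outside the stretch were ranked by how alike their levels over the 16 pre-transplant libraries were to those of ENSRNOG00000014118. The top 3 lay on other chromosomes. Its neighbours in the stretch were left out of this ranking, so they were not compared. Among 7389 features with a mean of at least 10 CPM, the highest Pearson correlations of log2(CPM + 1) were 0.994 each, for ENSRNOG00000005686 (chromosome 4, 127552101 to 127824970), ENSRNOG00000000186 (chromosome 7, 119616324 to 119623072) and ENSRNOG00000018740 (chromosome 9, 95161157 to 95302822). The 16 points fall into 4 groups that share their sorts, so the value mostly describes the group means. Like ENSRNOG00000014118, all 3 had close levels in adult and LAP+ cells and low ones in LAP+/OC2+ cells. ENSRNOG00000005686, for example, stood at 245 ± 8.87, 307 ± 43.1 and 49.3 ± 17.5 CPM in these groups (SD, n = 4 each).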

How the data were processed

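Each deposited file holds the raw read counts of 1 library, with exon positions, strand and exon length beside each feature, per the file headers. The submitters' processing notes name STAR 2.5.2b, Trimmomatic 0.36, bcl2fastq 2.17 and, for counting, featureCounts (Subread 1.5.2). No source used here names the build, the annotation release or the strand option. Reads shared with near-identical copies could be split or lost. The p-values set each difference against the estimated spread between these libraries. Groups come from the sample titles. The 8 members and all lists were chosen with earlier results of these data known.

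All features were tested with edgeR 4.0.16 in R 4.3.3 (filterByExpr, TMM factors, quasi-likelihood F test with robust estimation, threshold 0.05 after Benjamini-Hochberg adjustment). The groups before transplantation were fitted on 16 libraries, colony and host on 10 with the animal as a block, and the difference of differences on 18 with that block. All 8 members passed the filter in each of these fits, ENSRNOG00000012658 before transplantation only through the LAP+ and LAP+/OC2- libraries. CPM uses TMM-scaled library sizes, set separately for each stage, and FPKM divides CPM by exon length. Intervals are 95% intervals of the fitted log2 difference.

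The animal pairs colony and host because the titles name the same 5 animals, although deviations from the group means correlated only between -0.21 and 0.29 within animals. Among 44 pairs of replicates none was as close as sampling noise alone allows (lowest chi-square per degree of freedom 4.91). The text names the 8 members, the 2 features of the stretch next below them and the 3 features outside the stretch most like the most abundant member. Alternatives were DESeq2 1.42.0, RLE size factors, no or a stricter low-count filter, mitochondrial rows left out, the block added or dropped, fits of 2 groups only and leaving out each library or animal. Leaving out the LAP+/OC2+ sort, or 3 libraries together, was added after the data were seen. The test was tried on simulated counts.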

Additional observations from a re-analysis of the deposited data

Results flagged for a closer look

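Of 48 sets (8 members in 6 groups), 6 had 1 library far from the others. Chance would give about 1 in 20 if the sets were independent. The 8 members come from the same libraries, so the 6 do not measure an excess over chance. ENSRNOG00000014118 was low in LAP+ library 2 (148 CPM, others 248 to 263) and in LAP+/OC2- library 1 (135 CPM, others 254 to 276). ENSRNOG00000013684 was high in LAP+ library 2 (83.8 CPM, others 64.4 to 67.1) and low in adult library 2 (183 CPM, others 282 to 291). ENSRNOG00000030954 was high in LAP+/OC2- library 3 (25.4 CPM, others 20.2 to 20.9), and ENSRNOG00000021726 in LAP+/OC2+ library 2 (1.66 CPM, others 0.774 to 0.815, from 3 to 7 counts per library). LAP+ library 2 was below all other LAP+ libraries for 5 members and above them for 3. LAP+/OC2- library 1 was below its group for 5 members and above it for 1.

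For 4 members the difference between LAP+ and adult cells differed from that between colony and host by the test of the difference itself. The values were 3.85 for ENSRNOG00000012658, -1.34 for ENSRNOG00000013391, -1.61 for ENSRNOG00000013684 and -0.49 for ENSRNOG00000030954 on the log2 scale. The first of these rests on 3 counts over the adult libraries, and the last was lost in most alternatives.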

How the results depend on the processing

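No called value reversed its sign in 1039 recomputed member values. Calls were lost in 16 of them, 15 of which concern ENSRNOG00000030954 in the difference of differences, and gained in 11. A further 51 values changed sign while not called before or after, 37 of them between LAP+/OC2- and LAP+ cells. Leaving out 1 library or animal gave 5 to 5 members called for LAP+ and for LAP+/OC2- against adult, 7 to 8 for LAP+/OC2+ against adult, 8 to 8 for LAP+/OC2+ against either other sort (ENSRNOG00000012658, tested only because it is high in those sorts, among them), 0 to 0 between LAP+/OC2- and LAP+, 0 to 2 for colony against host (2 without animal 246) and 3 to 4 for the difference of differences. The counts of 5 against adult cells also include ENSRNOG00000012658, whose call had to appear. Equal replicate numbers before transplantation were not treated as pairs, since the labels do not say that they share an animal. Deviations of such libraries from their group means correlated from -0.43 to 0.20, over 0.1 in 2 of 21 pairs. Colony and host libraries of the same animals gave only -0.21 to 0.29, so this measure cannot decide whether equal numbers are paired. With the replicate block the counts were 5, 7, 5, 8, 0 and 8 in the 6 comparisons before transplantation, the counts of the fits without it. Without the block, colony against host called 0 members and the difference of differences 3, in place of 4. The fitted size for ENSRNOG00000012658 is limited by its 3 adult counts.

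Counts over all features moved by over 1.5 times for 2 comparisons. RLE size factors also turned the majority of calls from lower to higher in LAP+/OC2+ cells, from 4261 higher and 5062 lower to 4682 and 4553 against LAP+/OC2- cells and from 4417 and 4956 to 4813 and 4544 against LAP+ cells. In LAP+/OC2- against adult cells they turned it the other way, from 4266 higher and 3926 lower to 4012 and 4155. In colony against host, DESeq2 called 327 features higher and 355 lower in colonies, the stricter filter 4 and 2, and the fit without the block 0 and 0, against 126 and 136 as reported. Without a low-count filter the counts were 325 and 426. They were 4 and 1 without animal 242, 70 and 60 without 243, 1055 and 1628 without 246, 107 and 51 without 248, and 0 and 0 without 249. Between LAP+/OC2- and LAP+ cells DESeq2 called 105 higher and 103 lower, against 34 and 20, and without LAP+ library 2 or 3 and without the 3 libraries that lay away from their groups the counts were 35 and 63, 61 and 34, and 55 and 27.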

Other observations

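Just below the abundance limit, ENSRNOG00000028744 (50339358 to 50358809, minus strand) had no count in the 16 libraries before transplantation and counts in all 10 libraries after it. It stood at 0.323, 0.073, 0.982, 1.09 and 0.269 CPM in the hosts of animals 242, 243, 246, 248 and 249, and at 1.65, 1.01, 0.533, 1.55 and 1.22 CPM in their colonies. The colony was higher in 4 of 5 animals. Kit, material and capture change with the stage, so the absence of counts before transplantation and their presence after it cannot be told apart from these. The next feature, ENSRNOG00000053793 (133 nt), had 9 counts in all, 2 in host and 7 in colony libraries.

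The share of all member counts that fell on ENSRNOG00000030954 was 5.39 ± 0.46% in adult cells and 5.41 ± 1.30% in LAP+ cells (SD, n = 4 each). LAP+/OC2+ libraries gave 11.4 ± 4.49% (SD, n = 4). In host and colony tissue it was 34.7 ± 4.57% and 35.2 ± 3.60% (SD, n = 5 each), after the change of kit and material. The 8 members together took 0.067 ± 0.0042% of nuclear counts in adult cells (SD, n = 4).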
